A study of Mus musculus with 15 samples.

Results

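The growth hormone and IGF axis was followed in the pituitary gland through 10 genes, namely Gh, Ghr, Pappa2, Igf1, Igf1r, Igfbp2, Igfbp3, Igfbp4, Igfbp5 and Igfbp7. They were found by symbol among the 55523 rows of the pituitary count table, with 1 row for each gene. RNA-seq covered 15 libraries of whole mouse pituitary glands, with 4 libraries of PE+/- males, 4 of PE-/- males, 4 of PE+/- females and 3 of PE-/- females. PE is the pituitary enhancer of Nr5a1, the gene for a nuclear receptor (Ad4BP/SF-1) that the pituitary makes in gonadotropes, and it was removed with CRISPR/Cas9 in fertilised eggs. PE-/- mice lacked it on both chromosomes, and the PE+/- controls lacked it on 1 of them, so every group carried the deletion and no wild-type gland was included. The deletion was present in every cell of the animal, and the age at which these glands were taken was not given in the sources used here. A whole gland mixes all pituitary cell types, so that fewer cells of a type and less RNA per cell cannot be told apart.

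Growth hormone is made by somatotropes, released on the signal of growth hormone-releasing hormone and ghrelin and held back by somatostatin. It acts through its receptor, encoded by Ghr, on the liver and other tissues, where it switches on Igf1, and IGF-I acts in turn through the receptor encoded by Igf1r and feeds back on the pituitary. IGF binding proteins (encoded by the Igfbp genes) hold IGF in the extracellular space, and the protease pappalysin-2, encoded by Pappa2, frees it by cutting IGFBP-3 and IGFBP-5. IGFBP-7 binds IGF only weakly.

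The libraries held 12982794 to 30238443 estimated counts, and about 4 counts stood for 1 fragment. Gh alone took 6.20% to 17.7% of a library. Nr5a1 checked the labels. It lay between 34.8 and 80.1 CPM (counts per 1e+06 counts of the scaled library) in PE+/- males, between 0 and 0.739 CPM in PE-/- males, between 33.7 and 45.4 CPM in PE+/- females and between 0.617 and 0.896 CPM in PE-/- females. All 5 somatotrope markers (Gh, Ghrhr, Pou1f1, Dlk1 and Neurod4) were above a mean of 1 CPM in each group. Posterior lobe markers summed to 0.394 to 82.9 CPM over the libraries and were lower in every PE-/- female (at most 2.81 CPM) than in every PE+/- female (at least 3.83 CPM). Of these 5 markers only 1 was above a mean of 1 CPM in PE+/- females and only 1 in PE-/- females. The labels number the libraries of a group without saying that each came from a separate animal, so the p-values measure the spread between these libraries.

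Promoter sequence is shown for the binding protein genes on which the results below turn most, Igfbp3 and Igfbp5. RefSeq (build GRCm38.p6) gave windows of 250 bases before a transcription start for 9 of the 10 genes, 11 windows in all, and none for Gh. The window of Igfbp3 lay at chr11:7213924-7214173 and that of Igfbp5 at chr1:72874885-72875115, both on the minus strand and read 5′ to 3′, the latter without the 19 bases nearest the start, which an annotated exon covers. Capitals mark the letters of TATANA, the core of a TATA box, on either strand. Only these exact letters were searched, so a TATA box of other letters would not be marked.
Igfbp3: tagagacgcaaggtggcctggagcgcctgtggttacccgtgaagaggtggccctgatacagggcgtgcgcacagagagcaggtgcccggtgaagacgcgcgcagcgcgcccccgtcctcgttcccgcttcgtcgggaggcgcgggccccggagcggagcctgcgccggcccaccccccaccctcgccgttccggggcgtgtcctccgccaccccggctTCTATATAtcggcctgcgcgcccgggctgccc
Igfbp5: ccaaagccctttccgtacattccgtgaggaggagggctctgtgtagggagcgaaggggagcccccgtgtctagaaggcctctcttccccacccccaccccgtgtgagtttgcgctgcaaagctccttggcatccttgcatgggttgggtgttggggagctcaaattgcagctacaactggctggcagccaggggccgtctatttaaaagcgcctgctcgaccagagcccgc

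The letters CAAGGTCA, a site to which NR5A1 binds, were found in 0 of the 11 windows on either strand, and in 1.33% of all 32851 windows of the same length. ATGNATA, the core of a site for the somatotrope factor POU1F1, was in the window of Pappa2 and in 7.92% of all windows. Gh had no window, so its promoter was not searched for any of these letters. TATANA was in 3 of the 11 windows, those of Igfbp3, Igfbp4 and one of the pair for Ghr, and in 22.6% of all windows, and the overlapping matches of Igfbp3 began 32 bases before the start. Annotated exons covered 250 bases of the Igf1 window, 192 of the Pappa2 window, 140 of one Ghr window and 65 of one Igfbp2 window. The windows of Igf1 and Pappa2 lay inside the gene coordinates given below, and not before the annotated start of the gene. The matches describe letters and say nothing about binding in the gland.

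The genes spanned a wide range of levels. Per kb of annotated exon, PE+/- males had a mean of 189000 CPM for Gh and 148 CPM for Igfbp5, and no library of another gene of the axis reached either. Igfbp4 (7.19 CPM per kb), Igfbp3 (7.18) and Igf1r (5.88) came next in PE+/- males, and their libraries overlapped. Ghr (2.47), Pappa2 (2.36), Igfbp7 (2.18), Igfbp2 (1.82) and Igf1 (1.77) followed, overlapping one another and lying below every library of Igf1r. On the same scale Igfbp3 stood in place 4 of 10 in PE+/- males and 3 in PE+/- females, but in place 7 in PE-/- animals of both sexes. Igf1 stood in places 10 and 6 in PE+/- males and females and in place 5 in both PE-/- groups. Raw counts were low for Igfbp2 (0 to 111 per library) and Igfbp7 (11 to 126), which limits what their comparisons can show.

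**Figure D1:**
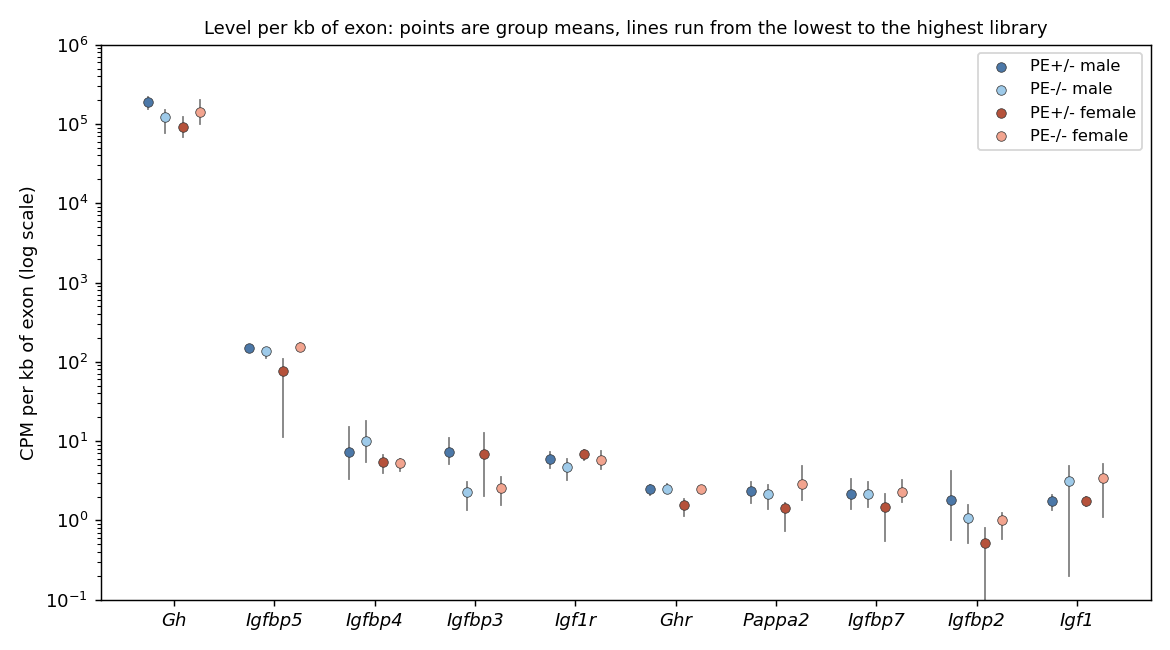
Level of each of the 10 genes as CPM per kb of annotated exon (log axis). Points are group means and lines run from the lowest to the highest library, with 4 libraries in each group and 3 in PE-/- females. Gh and Igfbp5 stand above the other 8 genes, and the line of Igfbp2 in PE+/- females leaves the axis because 1 library held 0 counts.

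Gh (MSTRG.4689, chr11:106300271-106301865, minus strand of mm10) had a negative fitted change in males and a positive one in females, neither past the threshold. Replicates 1 to 4 of PE+/- males had 158000, 171000, 187000 and 134000 CPM, while those of PE-/- males had 129000, 106000, 65600 and 126000 CPM. Every PE-/- male lay below every PE+/- male. The mean of PE-/- males was 65.8% of that of PE+/- males, with a log2 fold change of -0.61 (SE 0.236, 95% CI -1.15 to -0.07), and the adjusted p was 0.727 (edgeR quasi-likelihood test, Benjamini-Hochberg over all genes tested, as for all adjusted p-values here). PE-/- male replicate 3, with the least Gh of the males, held the most corticotrope and melanotrope marker RNA of all 15 libraries (sums of 115000 and 1160 CPM). The corticotrope sums of 4 markers ran from 15500 to 58200 CPM in PE+/- and 4730 to 115000 in PE-/- males, and the melanotrope sums of 3 markers from 216 to 687 and 509 to 1160 CPM, each marker above a mean of 1 CPM in both groups. All 3 melanotrope markers had positive fitted changes in males (median 0.77), and 0 of these 7 genes passed. Without PE-/- male replicate 3 the log2 fold change of Gh was -0.43. The part of these cells in the level of Gh was not tested.

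PE+/- females had 105000, 82500, 67800 and 59300 CPM of Gh and PE-/- females 174000, 86200 and 104000 CPM. These groups overlapped, since PE+/- female replicate 1 lay above PE-/- female replicates 2 and 3. The log2 fold change was 0.62 (SE 0.296, adjusted p = 0.365), and without PE-/- female replicate 1, the library with the most Gh, it was 0.27. The 4 lactotrope markers (Prl, Drd2, Esr1 and Tmem176a, each above a mean of 1 CPM) summed to 22400 to 35700 CPM in PE+/- females and 4950 to 6170 CPM in PE-/- females. Nearly all of that sum was Prl, with means of 30100 and 5080 CPM. The means of Esr1 were 408 and 346 CPM. Drd2 (27.7 and 32.3 CPM) and Tmem176a (156 and 189 CPM) went the other way, with higher means in PE-/- females. With Gh and Prl left out of the library sizes the log2 fold change of Gh was 0.61 (adjusted p = 0.376). This alternative bears on the scaling alone, and the part of lactotropes in the level of Gh was not tested. The change in females minus that in males was 1.24 on the log2 scale (SE 0.376, adjusted p = 0.249).

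Among PE+/- animals Gh was lower in every female than in every male, with a log2 fold change of -1.04 (SE 0.228) and an adjusted p of 0.101. The call depended on the test, since the adjusted p was 0.000378 with DESeq2, 0.0254 with the likelihood ratio test of edgeR, and 0.0493 without PE+/- female replicate 1. In PE-/- animals the sexes overlapped, and females against males gave 0.19 (SE 0.310, adjusted p = 0.997), so that a difference of either sign up to the bounds of its 95% CI (-0.54 to 0.92) could not be told from 0. The male genotype comparison and the comparison of the sexes in PE+/- share the PE+/- male libraries. The female genotype comparison likewise shares the PE+/- female libraries with that comparison of the sexes.

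**Figure D2:**
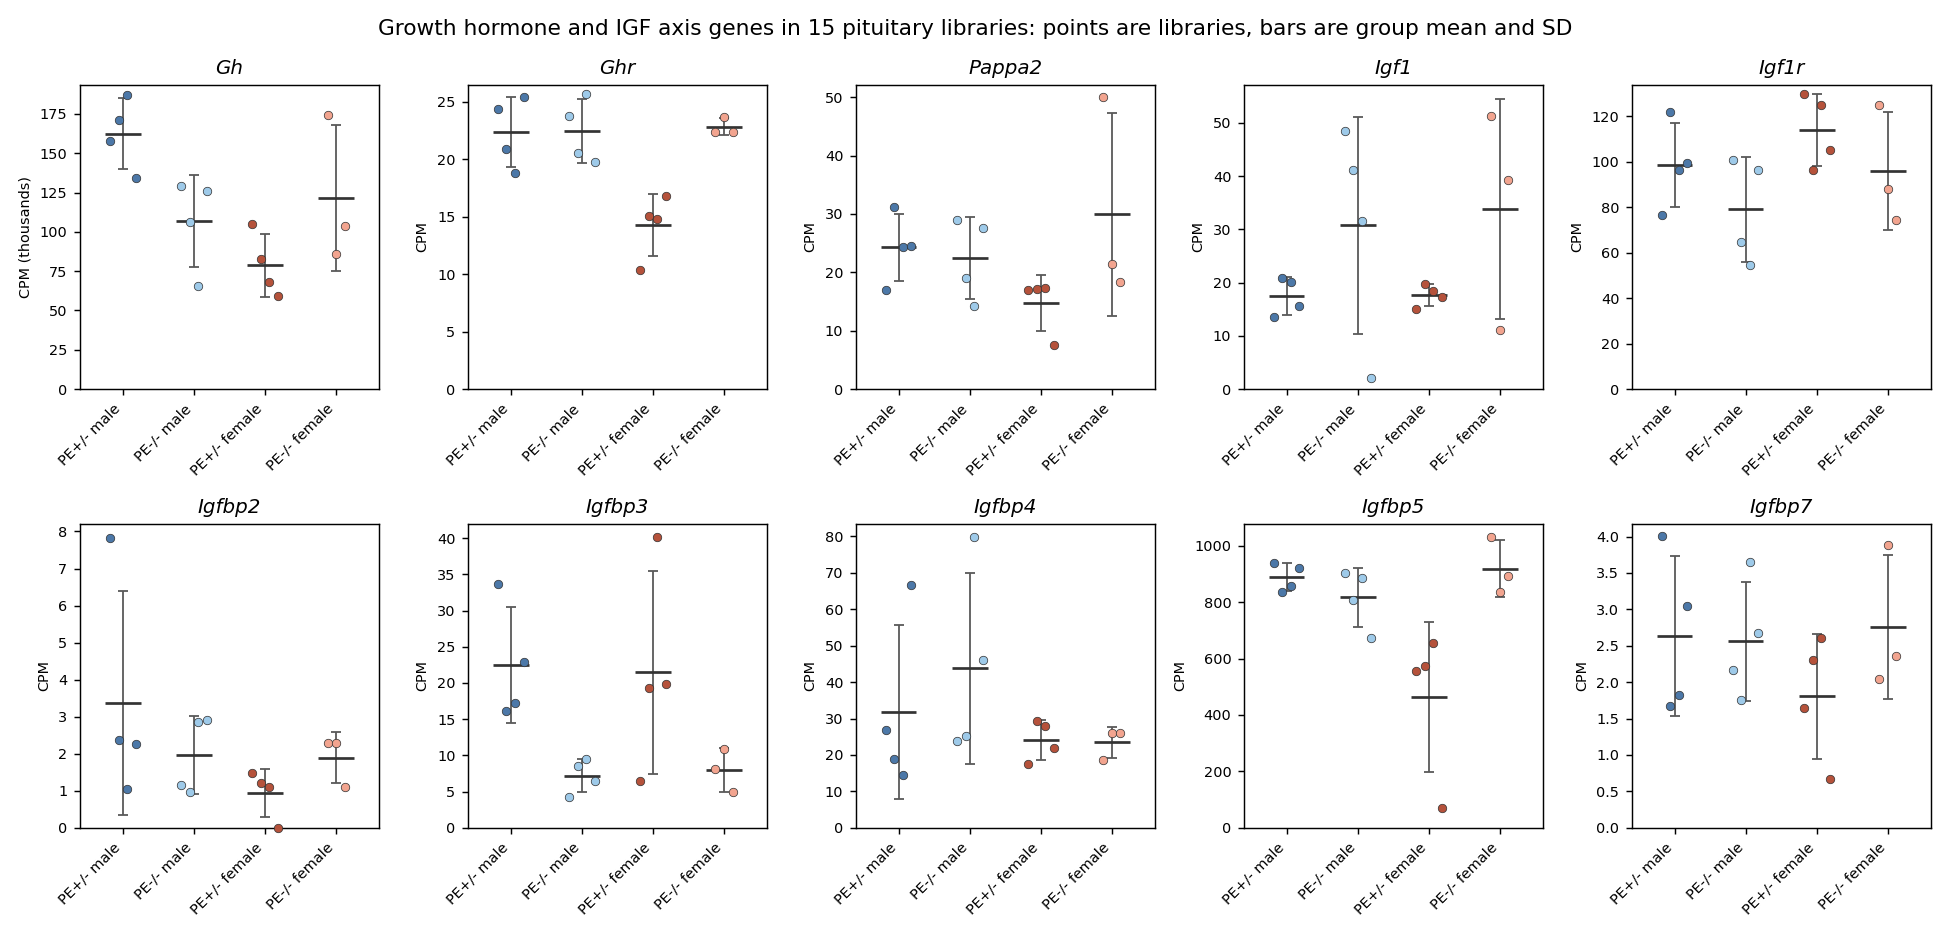
CPM of each of the 10 genes in the 15 libraries (each panel with its own linear axis from 0, the Gh axis scaled as labelled). Points are libraries, horizontal bars are group means and error bars are SD. The 4 PE-/- male points of Gh and of Igfbp3 lie below all 4 PE+/- male points, and the 3 PE-/- female points of Ghr, Pappa2 and Igfbp5 lie above all 4 PE+/- female points.

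Ghr (MSTRG.8308, chr15:3317760-3583492, minus strand) encodes the growth hormone receptor. PE+/- males had 24.4, 20.9, 18.8 and 25.4 CPM, PE-/- males 23.8, 20.5, 25.7 and 19.8 CPM, and PE-/- females 22.4, 23.7 and 22.4 CPM. PE+/- females had 10.4, 15.1, 14.8 and 16.8 CPM and lay below every library of the other 3 groups. PE-/- against PE+/- gave a log2 fold change of 0.67 in females (SE 0.182, 95% CI 0.24 to 1.10, adjusted p = 0.132) and 0.00 in males (SE 0.150, adjusted p = 0.999). PE+/- females against PE+/- males gave -0.64 (SE 0.182, adjusted p = 0.173). DESeq2 called both (adjusted p = 0.0263 and 0.0405), and a single fit on all 15 libraries called the comparison of genotypes in females (0.0428). Both comparisons rest on the same PE+/- female libraries and are not separate findings. The difference between the changes of the sexes was 0.67 (SE 0.230, adjusted p = 0.323).

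Pappa2 (MSTRG.1397, chr1:158711727-158980490, minus strand) had 16.9, 17.1, 17.3 and 7.62 CPM in PE+/- females and 50.0, 21.4 and 18.4 CPM in PE-/- females, without overlap. PE+/- males had 17, 31.2, 24.4 and 24.5 CPM and PE-/- males 29.0, 19.0, 14.3 and 27.6 CPM, which overlapped. PE-/- against PE+/- gave 1.01 in females (adjusted p = 0.305) and -0.11 in males (adjusted p = 0.988), and without PE-/- female replicate 1 the female value was 0.43. A shorter annotated gene, 1600012P17Rik, overlaps Pappa2 on the same strand, and reads of the pair may have been split between them. Over the 15 libraries the log2 CPM of Pappa2 was closer to that of Gh than the log2 CPM of any other of the 10 genes (Pearson's r = 0.769, and 0.782 after the group means were removed), a description over libraries that share their depth and scaling.

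Igf1 (MSTRG.2780, chr10:87858265-87937042, plus strand) was even in PE+/- animals and uneven in PE-/- animals. PE+/- males had 13.5, 20.9, 20.1 and 15.6 CPM, and PE+/- females 15, 19.8, 18.5 and 17.3 CPM. PE-/- males had 48.4, 41.1, 31.5 and 1.99 CPM, and PE-/- females had 51.3, 11 and 39.2 CPM. In each sex all PE-/- libraries but 1 lay above every PE+/- library, and the exception lay below every one. PE-/- against PE+/- gave 0.81 in males (adjusted p = 0.972) and 0.93 in females (adjusted p = 0.372). Single libraries moved these values both ways. When PE-/- male replicate 4 was left out the male value was 1.20 (adjusted p = 0.207), but it was 0.51 when replicate 1 was. Leaving out PE-/- female replicate 2 gave 1.34 in females (adjusted p = 0.0877), whereas leaving out replicate 1 gave 0.50 (adjusted p = 0.736). An antisense gene, Igf1os, overlaps Igf1, and since strand was not stated their reads cannot be told apart. Igf1r (MSTRG.22374, chr7:67952827-68233668, plus strand) lay between 54.6 and 130 CPM over the 15 libraries, with overlapping genotypes in both sexes (log2 fold change -0.32 in males and -0.26 in females, adjusted p = 0.97 and 0.625).

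Igfbp3 (MSTRG.3284, chr11:7206086-7213923, minus strand) encodes the main IGF carrier of blood, and its mean in PE-/- animals was 32.1% of that in PE+/- animals in males and 37.1% in females. PE+/- males had 33.7, 16.1, 17.2 and 22.9 CPM and PE-/- males 4.30, 8.57, 9.50 and 6.48 CPM, with no overlap. PE+/- females had 6.40, 19.3, 40.2 and 19.9 CPM and PE-/- females 8.09, 10.9 and 4.90 CPM, and only PE+/- female replicate 1 lay among the PE-/- values. The log2 fold change was -1.64 in males (SE 0.322, 95% CI -2.37 to -0.90, adjusted p = 0.183) and -1.43 in females (SE 0.582, 95% CI -2.79 to -0.07, adjusted p = 0.288). The difference between the changes of the sexes was 0.21 (SE 0.663, adjusted p = 0.967). In males DESeq2 (adjusted p = 0.000645) and the likelihood ratio test of edgeR (0.00204) made the call that the quasi-likelihood test did not. Without PE+/- female replicate 3 the log2 fold change in females was -0.94.

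Fibroblast and pericyte markers, taken as a sum, were also lower in PE-/- glands, without overlap in either sex. The sum of 6 markers (Col1a1, Col1a2, Dcn, Lum, Pdgfrb and Rgs5, each above a mean of 1 CPM in every group) ran from 673 to 790 CPM in PE+/- males, 415 to 572 in PE-/- males, 720 to 1210 in PE+/- females and 453 to 552 in PE-/- females. Most of that sum was Rgs5, a pericyte gene, whose mean was 482 CPM in PE+/- and 277 CPM in PE-/- males (adjusted p = 0.505), then 679 CPM in PE+/- and 295 CPM in PE-/- females (adjusted p = 0.1). Col1a2, a fibroblast collagen, passed the test in females, where its mean fell from 165 to 42.8 CPM (adjusted p = 0.0207). The other 4 did not pass the test in either sex, for example Dcn, whose means were 131 (PE+/- males), 118 (PE-/- males), 90.5 (PE+/- females) and 93.2 CPM (PE-/- females). PE+/- female replicate 1, with the least Igfbp3 of the PE+/- libraries, had a marker sum of 914 CPM. Endothelial and erythroid markers, each list of 5, also had mostly negative fitted changes. Of the endothelial markers 5 of 5 were negative in males (median -0.45) and 4 of 5 in females (-0.32), with 0 past the threshold. Their sums overlapped, from 77.4 to 354 CPM in PE+/- males, 81 to 95.2 in PE-/- males, 102 to 155 in PE+/- females and 93.6 to 116 in PE-/- females. The highest sum of each sex was in the library with the most Igfbp3, PE+/- male replicate 1 (354 CPM) and PE+/- female replicate 3 (155 CPM), while PE+/- female replicate 1 had the lowest of its group (102 CPM). Erythroid markers were negative in 5 of 5 in both sexes (medians -0.89 and -0.85, 0 past the threshold), with sums of 498 to 1260, 204 to 895, 570 to 1340 and 383 to 790 CPM in the 4 groups in the same order. The part of any of these cells in the level of Igfbp3 was not tested.

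**Figure D3:**
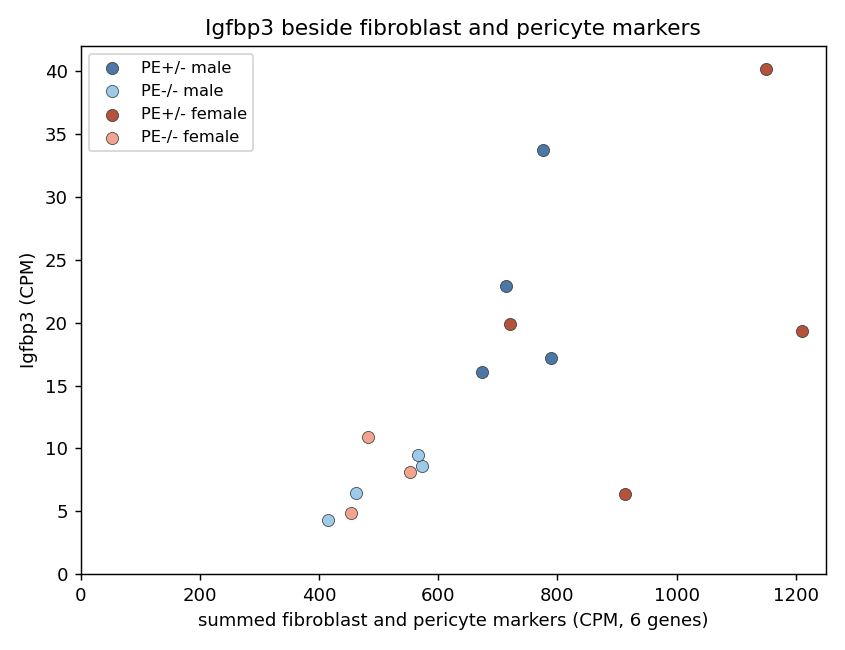
Igfbp3 (CPM, vertical axis) against the summed CPM of 6 fibroblast and pericyte markers (horizontal axis) in the 15 libraries, both axes linear from 0. Each point is a library, coloured by group. The 7 PE-/- libraries lie at marker sums of 415 to 572 CPM, and the 8 PE+/- libraries lie at 673 to 1210 CPM.

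Igfbp5 (MSTRG.637, chr1:72857932-72874884, minus strand) was the most abundant binding protein gene. PE+/- males had 939, 836, 856 and 921 CPM, PE-/- males 902, 808, 885 and 672 CPM, and PE-/- females 1030, 835 and 891 CPM. PE+/- females had 556, 574, 655 and 68.4 CPM and lay below every library of the other groups, as with Ghr. The log2 fold change in females was 0.98 (SE 0.628, adjusted p = 0.517), and without PE+/- female replicate 4, the library at 68.4 CPM, it was 0.61 (adjusted p = 0.127). The 3 other PE+/- females had a mean of 595 ± 52.7 CPM (SD, n = 3), against 918 ± 98.9 CPM (n = 3) in PE-/- females. In males the log2 fold change was -0.12 (SE 0.120, 95% CI -0.40 to 0.15). Stem or folliculostellate markers, 5 of 5 with positive fitted changes in females (median 0.66, 0 past the threshold, and all but S100b above a mean of 1 CPM), summed to 89.4 to 140 CPM in PE+/- and 148 to 222 CPM in PE-/- females, without overlap, as for Ghr, Pappa2 and Igfbp5. In males 5 of 5 of these markers also had positive fitted changes (median 0.335, 0 past the threshold). Their male sums overlapped, at 80.9 to 196 CPM in PE+/- and 162 to 199 CPM in PE-/-. The part of stem or folliculostellate cells in these 3 genes was not tested.

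Igfbp4 (MSTRG.4502, chr11:99041244-99054392, plus strand) had means of 31.7 ± 23.9 and 43.7 ± 26.2 CPM (SD, n = 4 each) in PE+/- and PE-/- males and 24.1 ± 5.56 (n = 4) and 23.5 ± 4.24 CPM (n = 3) in PE+/- and PE-/- females. The wide SD in males came from PE+/- male replicate 4 (66.7 CPM) and PE-/- male replicate 3 (79.9 CPM). The same libraries had the highest posterior lobe marker sums of the 15 (82.9 and 72.1 CPM) and the highest melanotrope sums of their groups (687 and 1160 CPM), whose part in the level of Igfbp4 was not tested. Igfbp2 (MSTRG.636, chr1:72824503-72852474, plus strand) had means of 3.37 ± 3.03 and 1.97 ± 1.05 CPM in PE+/- and PE-/- males and 0.946 ± 0.652 and 1.89 ± 0.688 CPM in females. Its 0 counts in PE+/- female replicate 4 allow up to 0.732 CPM (3 fragments, counting error only). Igfbp7 (MSTRG.18716, chr5:77349240-77408041, minus strand), which overlaps Polr2b on the opposite strand, had means between 1.81 and 2.76 CPM in the 4 groups. The genotypes of these 3 genes overlapped in both sexes, and the lowest adjusted p was 0.621, for Igfbp7 in females. Igfbp2 and Igfbp5 lie next to each other on chromosome 1 on opposite strands, and their log2 CPM went together over the 15 libraries (Pearson's r = 0.837, and 0.770 after the group means were removed), as did those of Igfbp2 and Igfbp7 (0.848 and 0.826), with PE+/- female replicate 4 lowest in all 3.

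**Figure D4:**
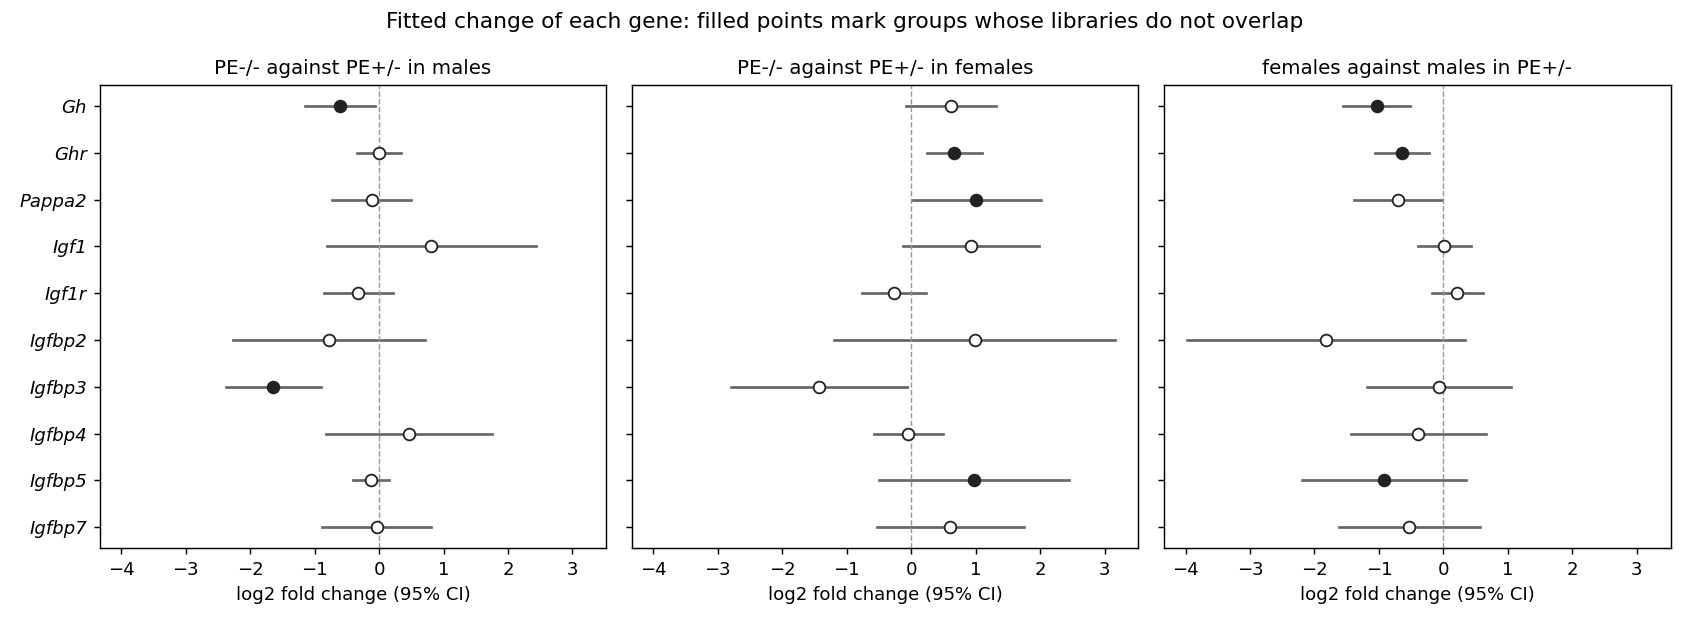
Fitted log2 fold change of each of the 10 genes with its 95% confidence interval, in PE-/- against PE+/- males, PE-/- against PE+/- females, and females against males of PE+/-. Filled points mark genes whose groups do not overlap. Gh lies below 0 in males and above 0 in females, and Igfbp3 lies below 0 in both.

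By DESeq2 and by the likelihood ratio test more genes of the whole table passed than by the quasi-likelihood test, so each count is given with the share of all genes for its own test. Over the 10 genes, 0 passed the quasi-likelihood test of edgeR in any of the 5 comparisons. In males, where 0.132% of 17392 genes passed, 2 of the 10 did so at an unadjusted p under 0.05 (Gh and Igfbp3, both lower, against 6.14% of all genes). DESeq2 called 1 of the 10 in males (1.19% of all genes) and the likelihood ratio test 1 (0.793%). In females, where 1.05% of 18085 genes passed, 3 did so without adjustment (Ghr and Pappa2 higher, Igfbp3 lower, against 16.1%), 1 by DESeq2 (7.96%) and 0 by the likelihood ratio test (3.93%). For females against males of PE+/-, where 0.67% of 17163 genes passed, 3 did so without adjustment (Gh, Ghr and Pappa2, all lower, against 13.5%), 2 by DESeq2 (5.38%) and 1 by the likelihood ratio test (2.46%). For females against males of PE-/-, where 0.0494% of 18217 genes passed, the counts were 0 without adjustment (3.37%), 0 by DESeq2 (0.227%) and 0 by the likelihood ratio test (0.181%). For the interaction, where 0.161% of 19286 genes passed, they were 3 (10.1%), 0 (2.09%) and 0 (1.05%).

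Groups without overlap were seen for 2 of the 10 genes in males (Gh and Igfbp3 lower, where 2.01% of all genes did so in that direction) and for 3 in females (Ghr, Pappa2 and Igfbp5 higher, against 9.65%). They were seen for 3 genes in females against males of PE+/- (Gh, Ghr and Igfbp5 lower, against 4.44%) and for 0 in females against males of PE-/- (5.24% in either direction). The median log2 fold change of the 10 genes was -0.12 in males, 0.64 in females, -0.59 for the sexes in PE+/- and 0.14 for the sexes in PE-/-, while the median of all genes tested lay between -0.0102 and 0.00266. In 6 genes, Gh, Ghr, Pappa2, Igfbp2, Igfbp5 and Igfbp7, the PE+/- females had the lowest mean of the 4 groups, as they did in 33.3% of all 19286 genes. Igfbp2 and Igfbp7 are among the 6 at low counts. The 10 genes were chosen with earlier results of these data known, so their counts and medians beside those of all genes are a description and no test.

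Of 16 genes that control Gh, 11 had their lowest mean in PE+/- females, among them the receptors Ghrhr, Ghsr, Sstr2 and Sstr5 that set the release of growth hormone. Others went the opposite way. Neurod4, a somatotrope factor, had its highest mean in PE+/- females. Its means were 182 CPM in PE+/- males, 154 in PE-/- males, 417 in PE+/- females and 198 in PE-/- females. Thrb, a thyroid hormone receptor, also had its highest mean in PE+/- females (314, 191, 545 and 176 CPM in the same order). The female genotypes overlapped for both genes. Thrb ran from 221 to 867 CPM in PE+/- and 9.49 to 488 CPM in PE-/- females. In males it ran from 250 to 380 CPM in PE+/- and 28.5 to 417 CPM in PE-/-. Ghrhr, the receptor for growth hormone-releasing hormone, had means of 82.9 ± 17.1 and 79.8 ± 39.7 CPM in PE+/- and PE-/- males. PE+/- females had 61.5, 72.0, 42.9 and 61.7 CPM of Ghrhr and PE-/- females 116, 77.4 and 82.9 CPM, without overlap (log2 fold change 0.62, SE 0.223, adjusted p = 0.23). Ghsr, the ghrelin receptor, had 0.781, 1.46, 2.12 and 3.35 CPM in PE+/- females and 7.04, 4.29 and 5.64 CPM in PE-/- females, again without overlap (1.54, SE 0.456, adjusted p = 0.158). In males the means of Ghsr were 5.83 ± 1.76 in PE+/- and 3.80 ± 0.820 CPM in PE-/- (-0.62, adjusted p = 0.818), and the difference between the changes of the sexes was 2.16 (adjusted p = 0.146).

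Sstr5, a somatostatin receptor that holds growth hormone release back, had 39.7, 30.5, 22.4 and 15.7 CPM in PE+/- females and 97.8, 68.6 and 71.1 CPM in PE-/- females, which did not overlap. The log2 fold change was 1.54 (SE 0.321, adjusted p = 0.0789), and 0.0498 was the adjusted p without PE+/- female replicate 1. In males Sstr5 had means of 63.9 ± 16.7 and 67.0 ± 12.1 CPM (0.07), and the difference between the changes was 1.48 (adjusted p = 0.18). Sstr2, another somatostatin receptor, averaged 9.74 CPM in PE+/- males, 10.3 in PE-/- males, 5.43 in PE+/- females and 9.01 in PE-/- females, with overlap in both sexes. Pou1f1, the factor that somatotropes, lactotropes and thyrotropes share, averaged 537 CPM in PE+/- males, 526 in PE-/- males, 700 in PE+/- females and 563 in PE-/- females, and its genotypes overlapped in both sexes.

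Gpr101 (MSTRG.26747, chrX:57496668-57503757, minus strand), an orphan receptor whose duplication is known to cause growth hormone excess in people, passed the test. PE+/- males had 292, 330, 131 and 176 counts, and all 4 PE-/- males and all 4 PE+/- females had 0. PE-/- females had 0, 5 and 0 counts. The mean of PE+/- males was 13.8 ± 5.41 CPM (SD, n = 4), and Gpr101 was at least 23.9-fold lower in PE-/- males and at least 19.6-fold lower in PE+/- females, with 12 counts per library taken as the floor. The adjusted p was 0.0117 for genotype in males and 0.00975 for sex in PE+/-. The call in males was lost without PE+/- male replicate 2 (adjusted p = 0.0501) or replicate 4 (0.0719), and the interaction had an adjusted p of 0.0667. Gonadotrope markers were also lower in PE-/- males, with sums of 2680 to 3970 CPM over 5 genes in PE+/- males, 16.8 to 154 in PE-/- males, 510 to 2070 in PE+/- females and 65.1 to 122 in PE-/- females. Which cells held the Gpr101 RNA was not tested.

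**Figure D5:**
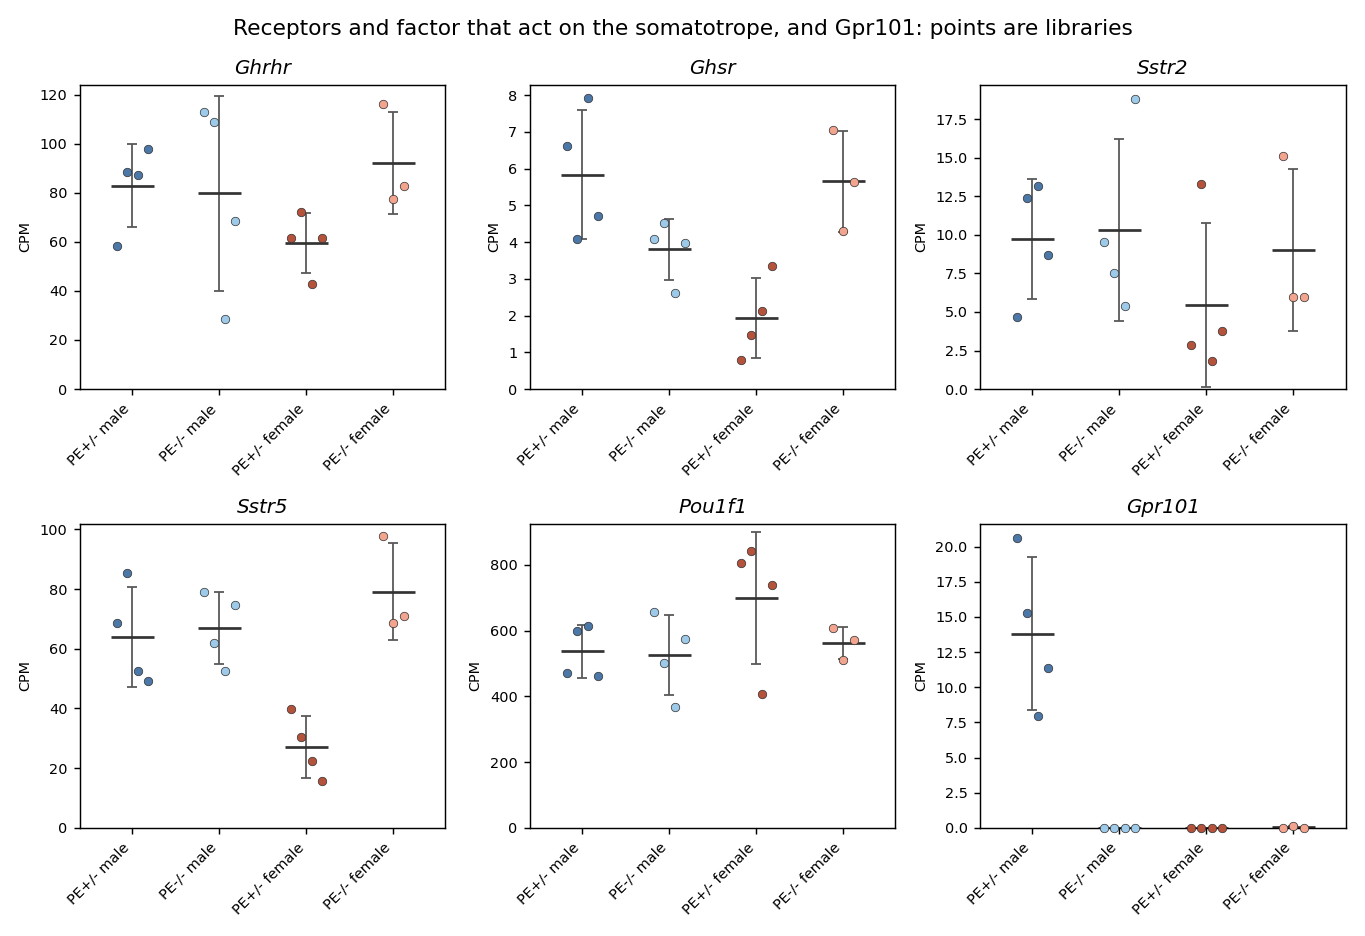
CPM of 5 genes that control growth hormone (Ghrhr, Ghsr, Sstr2, Sstr5 and Pou1f1) and of Gpr101 in the 15 libraries, each panel with its own linear axis from 0. Points are libraries, horizontal bars are means and error bars are SD. The PE-/- female points of Ghrhr, Ghsr and Sstr5 lie above all PE+/- female points, and Gpr101 is above 1 CPM in the 4 PE+/- male libraries alone.

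The rest of the pathway was followed in lists of 76 genes, of which 75 were in the table. Among genes that control Gh, 1 of 16 tested passed in males (Gpr101, lower) and 0 of 15 in females, where 5 were higher and 1 lower at an unadjusted p under 0.05. The share of all genes at that p was 6.14% in males and 16.1% in females, against which this count and those of the other lists are to be read. Of 14 genes of growth hormone receptor signalling 0 passed in either sex, with 0 of them at an unadjusted p under 0.05 in males and 4 in females. Among these, Cish, a feedback inhibitor that STAT5 induces, had 65.8, 62.7, 36.2 and 51.2 CPM in PE+/- females. In PE-/- females Cish had 95.3, 93.5 and 94.5 CPM. Stat5a itself had means of 78.4 CPM (41.6 to 161) in PE+/- and 25.6 CPM (22.5 to 31.4) in PE-/- females. Socs genes of the same list did not rise as Cish did. The means in PE+/- and PE-/- females were 6.83 and 3.13 CPM for Socs1, 50.1 and 51.5 for Socs2, and 61.4 and 50.2 for Socs3. Of 10 further IGF ligands, receptors, binding proteins and proteases that could be tested 0 passed in either sex, with 1 at an unadjusted p under 0.05 in males and 0 in females. Igf2 was at no more than 7 counts in any library, and Ghrh, whose product comes from the hypothalamus, was at 0 counts in all 15.

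Of 27 genes of IGF receptor signalling 0 passed in males and 0 of 26 in females, with 1 and 4 higher at an unadjusted p under 0.05. Gab1, an adaptor of the receptor, had 14.8, 14.3, 12.9 and 19.1 CPM in PE+/- females and 33.2, 30.2 and 28 CPM in PE-/- females (adjusted p = 0.0531). Irs4, another adaptor, had 43.9, 72.3, 64.9 and 70.2 CPM in PE+/- females and 116, 168 and 154 CPM in PE-/- females (adjusted p = 0.0553). In males Irs4 had means of 65.8 and 125 CPM in PE+/- and PE-/- (adjusted p = 0.717). Neurod4, Thrb, Cish, Stat5a, Socs1, Socs2, Socs3, Gab1 and Irs4 were named after their values were seen.

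Over all 4 lists DESeq2 called 1 of 67 genes in males (1.19% of all genes) and 7 of 65 in females (7.96%), and the likelihood ratio test called 1 (0.793%) and 4 (3.93%). Groups without overlap were seen for 14 of 65 genes higher and 1 lower in females (9.65% and 8.93% of all genes). For females against males of PE+/- 1 of 65 passed (Gpr101, lower), 6 by DESeq2 (5.38% of all genes) and 3 by the likelihood ratio test (2.46%), and 9 had separate groups in the lower direction (4.44% of all genes). For females against males of PE-/- 0 of 66 passed (0.0494% of all genes). There were 3 without adjustment (3.37% of all genes), 0 by DESeq2 (0.227%) and 0 by the likelihood ratio test (0.181%). For the interaction 0 of 67 passed, with 12 without adjustment (10.1% of all genes), 3 by DESeq2 (2.09%) and 2 by the likelihood ratio test (1.05%). The median log2 fold change of the 65 genes in females was 0.19, and that of the 67 genes in males was -0.01. The lists too were chosen with earlier results of these data known, so these values are a description.

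The genes whose log2 CPM was most like that of Gh over the 15 libraries, among 11928 genes with a mean of at least 5 CPM, were Bdkrb2 (Pearson's r = 0.95), Galnt16 (0.937) and Elovl5 (0.928). After the group means were removed the values were 0.890, 0.919 and 0.926. The genes were picked for their likeness in these same libraries, so the latter values are a description and no separate check.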

How the data were processed

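Adapters were removed with cutadapt, reads were aligned with STAR (mm10) and genes were counted with featureCounts, as the study's methods have it. The table that the authors deposited holds estimated counts in whole numbers, with no scaling, and its row names (an assembled locus or Ensembl gene, then the symbol) are those of a transcript assembly that the methods do not state. Values 5, 9 and 13 were more frequent than their neighbours (1.53, 1.16 and 1.08 times), which puts about 4 counts on each fragment and the floor, 3 fragments, at 12 counts. The annotation release and the strand setting were not given in the sources used here.

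Members and lists were chosen with earlier results of these data known. The libraries of the groups compared were fitted with edgeR 4.0.16 in R 4.3.3, with filterByExpr (minimum count 10, minimum total 15), TMM factors, the quasi-likelihood F test and Benjamini-Hochberg adjustment over all rows tested (threshold 0.05, two-sided). The standard error was the log2 fold change divided by the square root of F. CPM used TMM-scaled library sizes, and log2 CPM for correlations had a prior count of 2. Libraries of 1 group differed beyond sampling noise (chi-square divided by its degrees of freedom, 71.4 to 231). Named were the 10 genes, Ghrhr, Ghsr, Sstr2, Sstr5, Pou1f1, list genes past the threshold, the 3 genes most like Gh, and Nr5a1. Coordinates came from GENCODE M21, and promoters were searched for motifs chosen after the windows were read. Alternatives were DESeq2 1.42.0, its size factors in edgeR, no low-count filter, the likelihood ratio test, one fit on all 15 libraries, the replicate block, rows summed per locus, Gh and Prl left out of library sizes, each library left out, and, chosen after seeing the data, counts divided by 4. The scripts were tested on simulated data. The study's libraries of sorted gonadotropes were not analysed here.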

Additional observations from a re-analysis of the deposited data

Results flagged for a closer look

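Over the 46 pairs of a gene and a group of 4 libraries looked at, Dixon's test singled out 2, about as many as chance gives (1 in 20), and both were PE+/- female replicate 4. Pappa2 was at 7.62 CPM there, against 16.9 to 17.3 CPM in the other PE+/- females, a gap of 0.959 of the group's range. Igfbp5 was at 68.4 CPM, against 556 to 655 CPM (0.832 of the range). Without that library the log2 fold change of PE-/- against PE+/- females was 0.78 for Pappa2 and 0.61 for Igfbp5.

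Igf1 at 1.99 CPM in PE-/- male replicate 4, 6.32% of the next lowest library of its group, did not pass Dixon's limit. Such drops were seen in every library, with 64 to 151 genes (0.541% to 1.28% of those with a mean of at least 5 CPM) at less than one in 5 of the lowest other library of the group. The cause was not tested.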

How the results depend on the processing

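Of the values in the text, 50 were changes of single genes with 880 alternative values, of which 815 kept their direction and side of the threshold, 35 reversed, 26 gained the threshold and 4 lost it. The number of genes past the threshold was 206 with DESeq2, 138 with the likelihood ratio test and 37 in one fit on all 15 libraries for genotype in males, and 1431, 710 and 714 for genotype in females (123 with no low-count filter). It was 900, 422 and 421 for the sexes in PE+/- (66 with no low-count filter), 41 and 33 with DESeq2 and the likelihood ratio test for the sexes in PE-/-, and 394 and 202 for the interaction. Of the 10 genes, 1 passed in males with DESeq2 and 1 with the likelihood ratio test, 1 in females with DESeq2 and 1 in one fit on all 15 libraries, and 2 and 1 for the sexes in PE+/- with DESeq2 and the likelihood ratio test. Of the list genes, 7 passed in females with DESeq2, 4 with the likelihood ratio test, 5 in one fit on all 15 libraries and 2 with counts divided by 4, against 6, 3 and 4 for the sexes in PE+/- and 3 and 2 for the interaction. Ghr in males was at -0.00017 with DESeq2 and -0.0015 with its size factors, and Igfbp7 in males at 0.0062 with counts divided by 4. The cause of these differences was not tested.

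Deviations of same-numbered libraries had correlations of -0.113 to 0.168. Libraries of different numbers were not correlated, so whether the numbers pair the libraries was not settled. With the replicate block 0 genes passed for genotype in males, 1 in females, 0 for the sexes in PE+/-, 0 in PE-/- and 11 for the interaction, and 0 list genes passed in males and 0 for the sexes in PE+/-, where Gpr101 had adjusted p = 0.461 and 0.228.

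With each library left out in turn, the genes past the threshold ran from 11 to 35 for genotype in males, 29 to 244 in females, 34 to 113 for the sexes in PE+/-, 7 to 27 in PE-/- and 7 to 71 for the interaction. Of the 10 genes 0 to 1 passed for the sexes in PE+/-, and of the list genes 0 to 1 in males and 0 to 2 in females. Changes of sign in males were seen for Ghr (-0.069 to 0.068), Pappa2 (-0.26 to 0.052), Igfbp2 (-1.07 to 0.054), Igfbp4 (-0.0090 to 1.12), Igfbp7 (-0.26 to 0.24), Ghrhr (-0.27 to 0.22), Sstr2 (-0.38 to 0.29), Sstr5 (-0.040 to 0.24) and Pou1f1 (-0.16 to 0.11). In females Igfbp4 ran from -0.17 to 0.10, for the sexes Gh in PE-/- from -0.16 to 0.39 and Igfbp3 in PE+/- from -0.56 to 0.23, and for the interaction Igfbp3 from -0.093 to 0.70. Depth limited Igfbp2 and Igfbp7, which had at most 126 counts in a library.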
